A study of Mus musculus with 4 samples.

Results

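FAIRE-seq summits of the mouse dentate gyrus were examined in 3 duplicated stretches rich in zinc finger genes, on chromosome 4 (145000000 to 148000000), chromosome 13 (65000000 to 67500000) and chromosome 2 (175000000 to 177300000) of build mm9. The stretches were selected on earlier results of these same summit lists, so how they differ from the rest of their chromosomes in density, recurrence and score is given as a description, with no test. Neighbouring summits, from whichever library, that lay at most 250 bp apart were joined into a single region. The stretches held 542 of the 82899 regions of the series, 376 on chromosome 4, 137 on chromosome 13 and 29 on chromosome 2, from 1167 of 190846 summits. All 542 regions were kept, with no filter on low scores.

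The study compared dentate gyri of C57BL6 mice around 9 weeks old, wild type (WT) or lacking Mbd1 (Mbd1 KO), with 2 libraries per group by title. The dentate gyrus, a hippocampal field, is made mostly of granule neurons and keeps neural stem cells into adult life. The labels do not give how the Mbd1 allele was made or whether 2 libraries of a group are from different mice, so the spread between libraries may be technical. The labels conflict: in the genotype field, the library with the title WT 1 is Mbd1 KO and the one with the title Mbd1 KO 2 is WT, and only WT 2 and Mbd1 KO 1 carry labels that match. Libraries are named by title below, and group comparisons are given by title and by genotype field. The tissue identity and the loss of Mbd1 itself were not checked, because no mm9 annotation was used here.

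Clusters like these arose by repeated tandem duplication and are rich in genes for KRAB zinc finger proteins. Such a protein binds DNA through an array of zinc fingers, and its KRAB domain recruits the corepressor KAP1, which brings histone and DNA methylation to the site. Many of these proteins silence transposable elements, and the gene families differ in size between rodent species and strains. The Mbd1 protein recognises DNA by its methylated CpG sites and takes part in gene silencing. FAIRE-seq recovers DNA that carries few nucleosomes after fixation and phenol extraction, and a summit is the base where the peak caller placed the top of a peak.

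The copies in these families can be so alike that reads of 50 bases, the length sequenced here, do not tell them apart. To show how alike, the RefSeq promoters (build GRCm38.p6, 300 bases each, from 250 bases before a gene's start to 50 after) were read for 3 runs of neighbouring genes. These runs lie between Tnfrsf8 and Miip on chromosome 4, Mfsd14b and BC048507 on chromosome 13, and Edn3 and Phactr3 on chromosome 2. The runs were chosen after the gene table was seen and were not placed against the summits, since the builds differ. Capitals mark bases inside any 50-base window that also occurs, on either strand, in the promoter of another gene over 1000 bp away. The pair from the chromosome 2 run is shown because most promoters there had near copies. The pair from the chromosome 4 run is the 2 most repeated promoters of that run, picked after their values were seen, and the pair from the chromosome 13 run is shown for contrast.
Zfp968 (chromosome 2): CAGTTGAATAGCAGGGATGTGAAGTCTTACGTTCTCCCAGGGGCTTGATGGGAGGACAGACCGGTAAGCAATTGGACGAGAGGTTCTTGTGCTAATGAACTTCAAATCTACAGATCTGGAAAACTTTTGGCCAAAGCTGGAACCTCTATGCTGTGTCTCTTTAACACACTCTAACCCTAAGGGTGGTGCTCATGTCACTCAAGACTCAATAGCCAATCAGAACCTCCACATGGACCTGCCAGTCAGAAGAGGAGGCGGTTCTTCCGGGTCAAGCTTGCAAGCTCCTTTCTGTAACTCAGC
Zfp966 (chromosome 2): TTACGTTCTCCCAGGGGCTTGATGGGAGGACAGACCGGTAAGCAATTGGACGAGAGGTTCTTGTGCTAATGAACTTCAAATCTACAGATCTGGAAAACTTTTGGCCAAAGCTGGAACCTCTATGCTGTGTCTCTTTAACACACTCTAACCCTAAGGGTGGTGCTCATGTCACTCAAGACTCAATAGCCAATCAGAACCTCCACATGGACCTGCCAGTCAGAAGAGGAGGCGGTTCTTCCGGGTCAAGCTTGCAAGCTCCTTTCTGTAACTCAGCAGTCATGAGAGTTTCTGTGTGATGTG
Zfp600 (chromosome 4): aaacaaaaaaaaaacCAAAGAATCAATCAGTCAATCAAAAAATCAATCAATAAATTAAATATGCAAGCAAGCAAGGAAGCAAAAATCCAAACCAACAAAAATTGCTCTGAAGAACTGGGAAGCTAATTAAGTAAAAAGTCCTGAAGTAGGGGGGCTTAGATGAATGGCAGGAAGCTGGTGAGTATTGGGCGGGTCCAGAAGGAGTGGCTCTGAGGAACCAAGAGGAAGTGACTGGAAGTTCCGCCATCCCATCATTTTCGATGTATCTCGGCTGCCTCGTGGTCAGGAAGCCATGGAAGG
Rex2 (chromosome 4): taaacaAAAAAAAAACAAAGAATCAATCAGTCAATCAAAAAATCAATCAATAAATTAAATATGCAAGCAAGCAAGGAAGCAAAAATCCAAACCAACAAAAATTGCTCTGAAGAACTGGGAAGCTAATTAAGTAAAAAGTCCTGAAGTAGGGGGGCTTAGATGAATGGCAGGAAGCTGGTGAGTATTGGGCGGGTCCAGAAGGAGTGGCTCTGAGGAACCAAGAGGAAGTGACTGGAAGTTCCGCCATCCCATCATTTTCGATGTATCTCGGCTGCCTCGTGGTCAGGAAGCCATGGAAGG
Rsl1 (chromosome 13): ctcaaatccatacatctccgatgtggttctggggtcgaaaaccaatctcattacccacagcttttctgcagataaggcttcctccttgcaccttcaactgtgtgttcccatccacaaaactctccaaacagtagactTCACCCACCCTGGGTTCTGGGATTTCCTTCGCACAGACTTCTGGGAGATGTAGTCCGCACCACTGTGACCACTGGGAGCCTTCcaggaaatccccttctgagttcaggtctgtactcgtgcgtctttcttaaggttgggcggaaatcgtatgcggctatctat
Zfp458 (chromosome 13): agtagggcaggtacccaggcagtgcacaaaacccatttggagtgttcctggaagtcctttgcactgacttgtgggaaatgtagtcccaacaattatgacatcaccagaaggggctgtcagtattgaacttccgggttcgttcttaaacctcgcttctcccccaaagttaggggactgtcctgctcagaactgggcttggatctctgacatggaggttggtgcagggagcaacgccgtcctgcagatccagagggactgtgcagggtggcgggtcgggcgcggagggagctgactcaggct

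Zfp966 and Zfp968 shared 225 of 251 windows with each other, and every window of both also occurred at another gene. Their windows recurred in the promoters of 25 other genes. Zfp600 and Rex2 (reduced expression 2, a KRAB zinc finger gene) shared 236 of 251 windows, and their windows recurred at 4 other genes each. Rsl1, a regulator of sex-limited liver genes, had 7.17% of its windows elsewhere, and Zfp458, which lies 2 genes further on in the run, had none.

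The runs differed in how much of their promoters was repeated. In the chromosome 2 run, 31 of 32 protein-coding genes had a promoter in the table, and 24 of the 31 had at least 50 percent of their windows elsewhere (median 97.2%). In the chromosome 4 run 2 of 14 did (median 7.57%, 19 protein-coding genes in the run), and in the chromosome 13 run 2 of 37 did (median 0%, 47 protein-coding genes). Both of those on chromosome 13, Gm10324 and Gm53057, carry no zinc finger symbol; they are named after their values were seen. Among the 17410 other protein-coding genes 865 (4.97%) had at least 50 percent of their windows elsewhere. Of the 23 promoters of zinc finger symbols on chromosome 13, 19 (82.6%) had no repeated window, against 15732 (90.4%) of the other genes. The median promoter held 5 CpG sites in the chromosome 4 run, 6 in the chromosome 13 run and 4 in the chromosome 2 run, against 13 over the other genes.

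**Figure D1:**
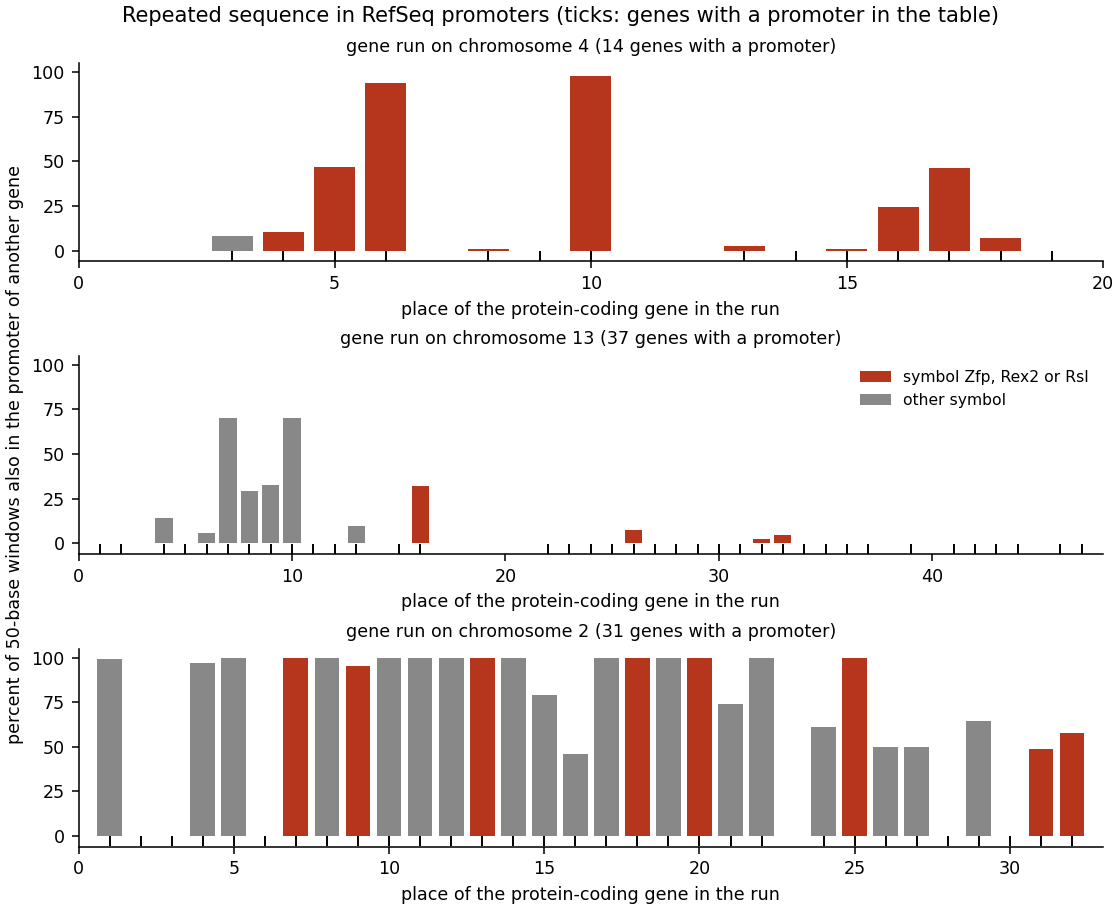
Percent of the 50-base windows of each RefSeq promoter that also occur in the promoter of another gene (y axis), by place of the protein-coding gene in its run (x axis). Ticks under the axis mark genes with a promoter in the table, and red bars are genes with a Zfp, Rex2 or Rsl symbol. Repeated windows fill most promoters of the chromosome 2 run, and at least 50 percent in 2 of 14 promoters on chromosome 4.

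On summits, the 3 stretches did not behave alike. The chromosome 4 stretch was crowded in all 4 libraries, with 3.54 to 4.09 times the summit density of the rest of its chromosome, and most of these summits were weak. The chromosome 2 stretch was sparse in all 4, at 0.299 to 0.417 times. The chromosome 13 stretch varied between libraries, from 0.794 times in WT 1 to 2.17 times in Mbd1 KO 2. No source used here gives how reads that fit several places were handled or whether an input library was used. The part of repeated sequence, of a stretch's copy number and of read depth in these counts was not tested.

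The lists differed in length, from 38142 summits in WT 1 and 46651 in WT 2 to 49671 in Mbd1 KO 2 and 56382 in Mbd1 KO 1. Read depth is not known from summit lists. Counts are therefore also given as a share of the library's own list. Scores are given as percentiles within a list, where 100 is the strongest summit and 50 its middle. The exception is a cut at a score of 10, which keeps unlike parts of the lists. On the rest of chromosome 4, 56.8% of summits reached it in WT 1, 47.8% in WT 2, 42.0% in Mbd1 KO 1 and 52.5% in Mbd1 KO 2.

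In the chromosome 4 stretch, WT 1 had 162 summits, WT 2 had 216, Mbd1 KO 1 had 231 and Mbd1 KO 2 had 224. These were 54.0, 72.0, 77.0 and 74.7 summits per Mb, against 14.2, 17.6, 21.8 and 18.6 per Mb on the rest of the chromosome. WT 1 was the lowest inside and outside the stretch, and the ratio of the densities stayed near its mean of 3.86 ± 0.25 (SD, n = 4 libraries). Of 961 windows of 2.5 Mb elsewhere in the genome that held at least 10 summits in every library, 1 was denser than this stretch, on chromosome X (120000001 to 122500000) with 236 to 261 summits per library. The middle of those windows lay at 19.4 summits per Mb.

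In the chromosome 13 stretch, WT 1 had 29 summits, WT 2 had 65, Mbd1 KO 1 had 67 and Mbd1 KO 2 had 104. The densities were 11.6, 26, 26.8 and 41.6 per Mb, against 14.6, 17.9, 21.6 and 19.1 per Mb on the rest of chromosome 13. WT 1 was thus below its own chromosome and the other libraries above it, and the mean ratio of 1.42 ± 0.57 (SD, n = 4) hides that split. Of the 961 windows, 1 varied more between libraries in share of the list than this stretch. Its highest share was 2.75 times its lowest, against a median of 1.25 over the windows.

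In the chromosome 2 stretch, WT 1 had 12 summits, WT 2 had 19, Mbd1 KO 1 had 17 and Mbd1 KO 2 had 21. The densities were 5.22, 8.26, 7.39 and 9.13 per Mb, against 16.9, 20.3, 24.7 and 21.9 per Mb on the rest of chromosome 2. Every library was sparser inside than outside, with a mean ratio of 0.358 ± 0.063 (SD, n = 4), and 939 of the 961 windows were denser. The flanks of the same length were sparse too, at 6.96 to 14.8 summits per Mb before and 8.70 to 13.04 after the stretch. Against these flanks the ratio was 0.695.

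**Figure D2:**
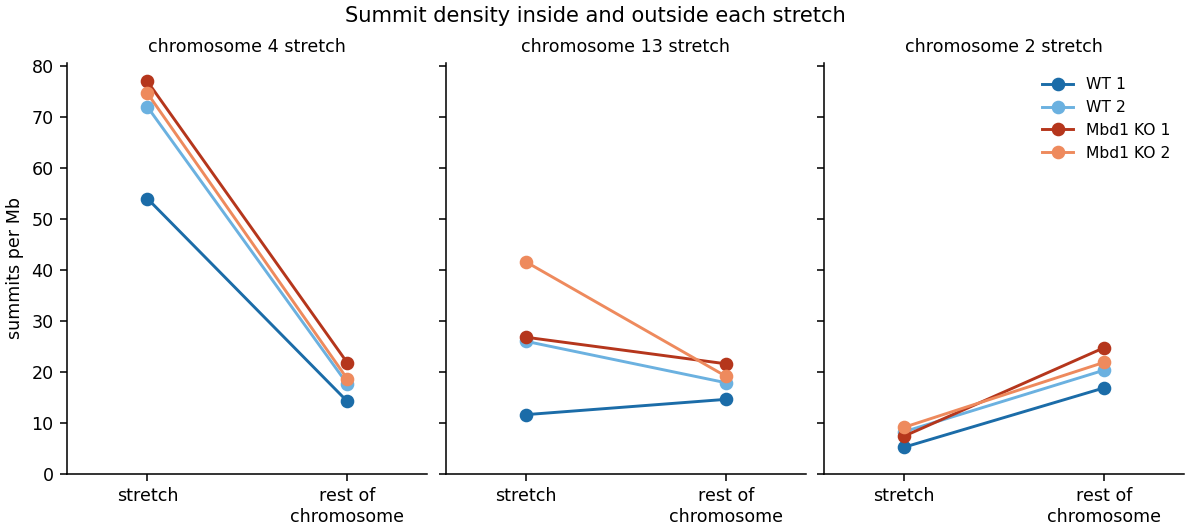
Summits per Mb in each stretch and in the rest of its chromosome (y axis), 1 line per library. All 4 lines fall from the chromosome 4 stretch to the rest, all 4 rise from the chromosome 2 stretch, and on chromosome 13 WT 1 rises while the other 3 fall.

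Summits of the chromosome 4 stretch were spread over its whole length, with 2 crowded parts. Of its 30 bins of 100 kb, 29 held a summit in every library, and 4 held at least 10 in every library, as did 55 of 25809 bins of the genome. The densest bin (146700001 to 146800000) held 15 summits in WT 1, 21 in WT 2, 21 in Mbd1 KO 1 and 20 in Mbd1 KO 2. In blocks of 500 kb, the densest (146500001 to 147000000) held 43, 61, 66 and 70 in the same order, and the second (145500001 to 146000000) held 32, 55, 53 and 58. WT 1 was the lowest in both. The last block (147500001 to 148000000) differed from the other 5: it held 15, 13, 22 and 14 summits, the fewest of the 6 in every library, and its summits had a median percentile of 59.6 against 24.0 to 35.2 in the others. The change began within the block before. Its bins from 147200001 to 147500000 held 1 to 5 summits per library, with median percentiles of 84.9, 70.7 and 61.5. The longest run of bases with no summit of any library was 98.2 kb (147314866 to 147413081). The 500 kb outside the stretch held 5 to 12 summits per library before its start and 7 or 8 after its end.

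The chromosome 13 stretch was made of a varying middle and a constant rim. In the middle 3 blocks of 500 kb (65500001 to 67000000), WT 1 had 12 summits, WT 2 had 50, Mbd1 KO 1 had 49 and Mbd1 KO 2 had 86. The outer 2 blocks held 17, 15, 18 and 18 in the same order. The 4 libraries were alike in the rim and far apart in the middle, a split into blocks that was chosen after the counts were seen. The ratio to the rest of the chromosome was 0.548, 1.87, 1.51 and 2.99 in the middle, and 1.16, 0.839, 0.834 and 0.940 in the rim. The middle summits were weak, with median percentiles of 8.97 in WT 1, 22.3 in WT 2, 28.1 in Mbd1 KO 1 and 13.8 in Mbd1 KO 2, against 61.7 to 71.4 in the rim. Of the middle summits 1, 5, 8 and 6 reached a score of 10, so WT 1 was the lowest there at that score too, on few summits, against 14, 11, 11 and 13 in the rim. The longest run with no summit was the first 214 kb (65000000 to 65214282).

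The chromosome 2 stretch held single, scattered summits. Of its 23 bins of 100 kb, 5 held no summit in any library and 9 held at least 1 in every library. The densest bin (175800001 to 175900000) had 2 summits in WT 1, 3 in WT 2, 2 in Mbd1 KO 1 and 4 in Mbd1 KO 2. The longest run with no summit was 268 kb (175964440 to 176232555).

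**Figure D3:**
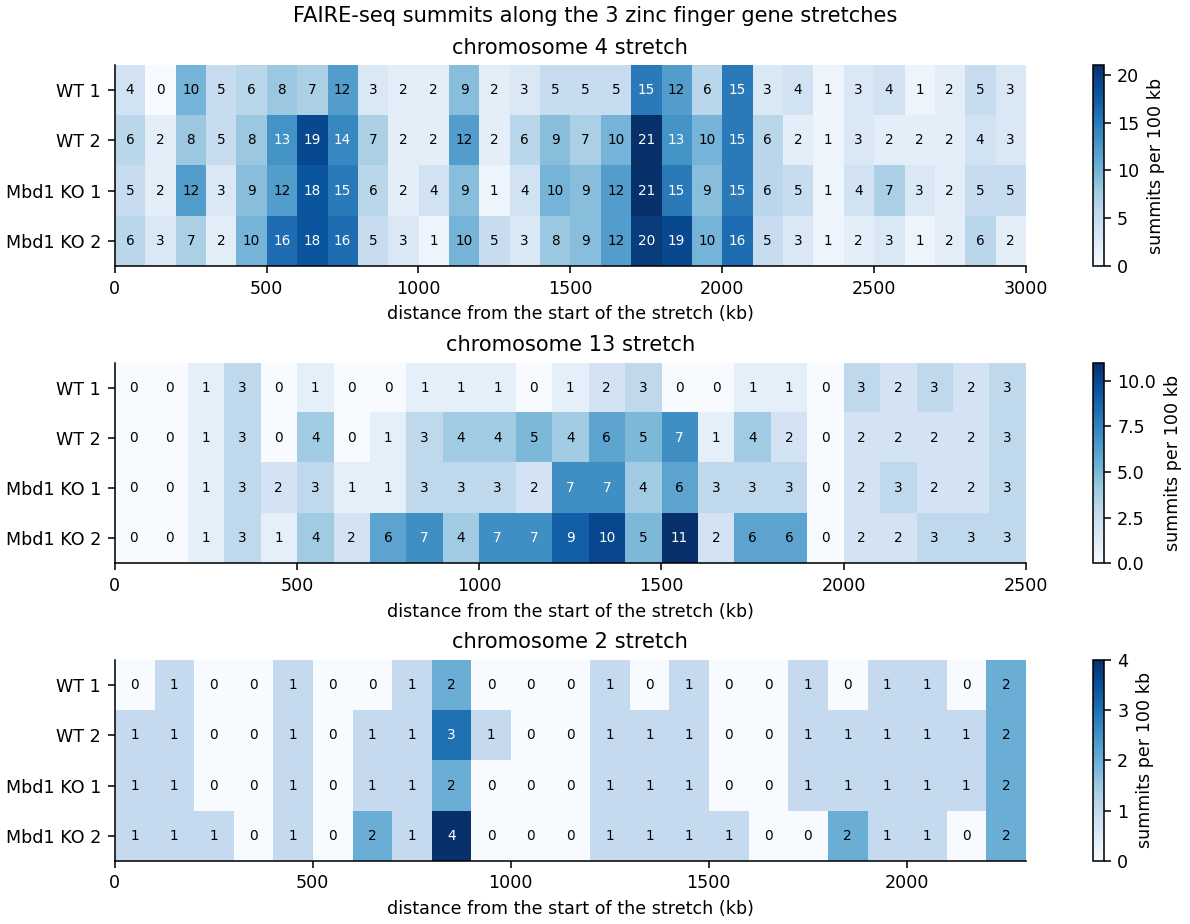
Summits per 100 kb (numbers and shade) in each library (rows) along the 3 stretches, by distance from the start of the stretch in kb. On chromosome 4 the same bins are dense in all 4 libraries, with up to 21 summits, and on chromosome 13 the middle bins fill in WT 2, Mbd1 KO 1 and Mbd1 KO 2 and stay near empty in WT 1.

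Summits of the chromosome 4 stretch ranked low within all 4 libraries, and those of the chromosome 13 stretch had their lowest medians in WT 2 and Mbd1 KO 2. On chromosome 4 the median percentile was 24.3 in WT 1, 31.1 in WT 2, 34.4 in Mbd1 KO 1 and 27.7 in Mbd1 KO 2, against 48.6 to 50.6 on the rest of the chromosome. All 4 libraries were low there, with a mean of 29.4 ± 4.4 (SD, n = 4). On chromosome 13 the medians were 44.6, 27.4, 41.9 and 18.2 in the same order, against 47.7, 50.6, 50.2 and 49.4 on the rest of the chromosome. The WT 1 median was close to its chromosome, but it joins 17 rim summits (median 66.8) with 12 middle summits (median 8.97). In the middle alone WT 1 had the lowest median of the 4 libraries. Over the whole stretch the library with the most summits, Mbd1 KO 2, had the lowest. On chromosome 2 they were 49.2, 56.3, 60.4 and 56.8, against 49.4 to 50.6 on the rest.

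At a score of at least 10 in every list, the crowding of chromosome 4 shrank and that of chromosome 13 was no longer seen. The density ratio became 1.57 on chromosome 4 and 0.761 on chromosome 13, and was 0.455 on chromosome 2. Such summits numbered 38 in WT 1, 39 in WT 2, 45 in Mbd1 KO 1 and 44 in Mbd1 KO 2 on chromosome 4, and 15, 16, 19 and 19 on chromosome 13. On chromosome 13 the totals join the rim, where the libraries were alike, with the middle, where WT 1 had 1 such summit and the others 5 to 8. On chromosome 2 the numbers were 8, 12, 10 and 13.

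**Figure D4:**
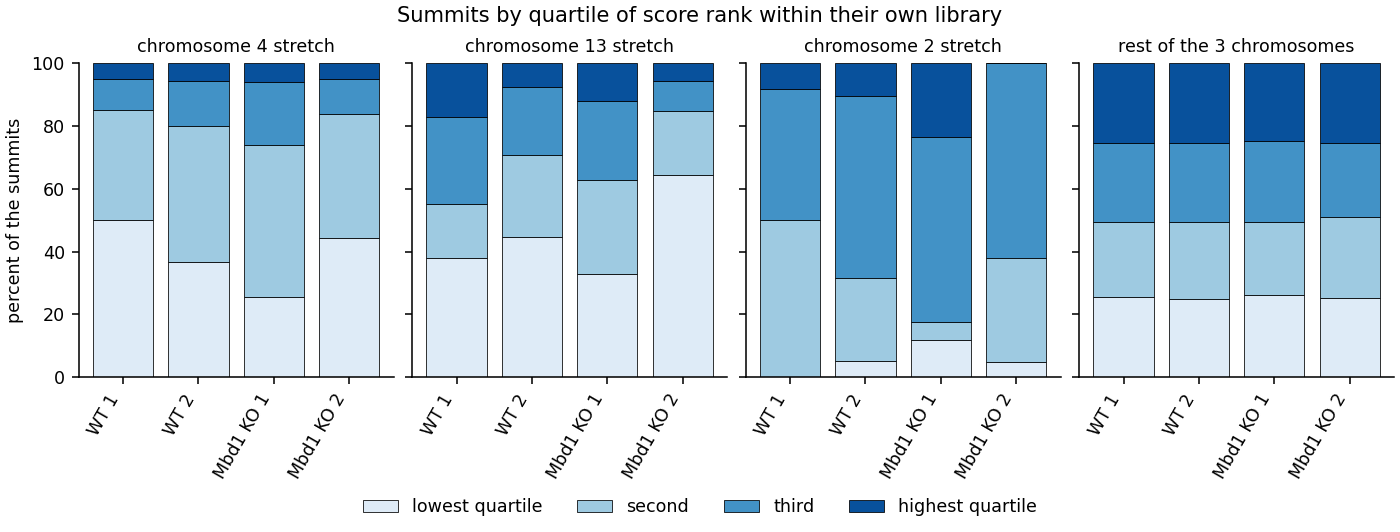
Percent of the summits (y axis) that fall in each quartile of the score ranks of their own library, for the 4 libraries in each stretch and in the rest of the 3 chromosomes. The lowest quartile makes up 25.5 to 50.0% of summits on chromosome 4 and 32.8 to 64.4% on chromosome 13, and 24.9 to 26.1% in the rest.

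The strongest regions shared by all libraries stood at the far end of the chromosome 4 stretch. The region at 147822572 to 147822591 had percentiles of 99.4 in WT 1, 99.6 in WT 2, 99.8 in Mbd1 KO 1 and 99.7 in Mbd1 KO 2, the top of the stretch in all 4 lists. The region at 147242777 to 147242812 had percentiles of 97.7, 98.3, 99.3 and 99.1 in that order, and the one at 147413082 to 147413160 had 97.6, 96.8, 98.6 and 98.3. All 3 lay within the top 4 percent of every list. On chromosome 13 the strongest was at 67209601 to 67209621, with percentiles of 97.9, 99.2, 98.3 and 98.6. It was followed by 65342161 to 65342203 (86.3 to 90.1) and 67182498 to 67182533 (78.4 to 91.1), and all 3 lay in the rim. On chromosome 2 the order was 175868292 to 175868382 (percentiles 61.0 to 87.2), 176991183 to 176991209 (56.3 to 87.1) and 176492948 to 176492980 (56.0 to 88.5), so no region there was in the upper quartile of all 4 lists. The genes at these positions were not analysed here.

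A smaller share of the regions in the stretches than of those elsewhere was called in all 4 libraries. Of 542 regions, 115 (21.2%) were called in all 4, 82 (15.1%) in 3, 114 (21.0%) in 2 and 231 (42.6%) in 1. Of the 14791 regions on the rest of the 3 chromosomes 31.8% were called in all 4, 10.07% in 3, 13.8% in 2 and 44.3% in 1. The share called in all 4 was 23.4% (88 of 376) on chromosome 4, 13.9% (19 of 137) on chromosome 13 and 27.6% (8 of 29) on chromosome 2. The share called in 1 was thus near the background and that called in 2 or 3 was higher. Of the regions called in 1 library, 17 were from WT 1, 52 from WT 2, 69 from Mbd1 KO 1 and 93 from Mbd1 KO 2, or 3.14%, 9.59%, 12.7% and 17.2% of the 542. On the rest of the 3 chromosomes these shares were 4.40%, 10.1%, 18.7% and 11.05%. The longest list, Mbd1 KO 1, gave the most there, and Mbd1 KO 2 in the 3 stretches together. In the chromosome 4 stretch alone Mbd1 KO 1 gave the most too, with 53 against 50 from Mbd1 KO 2. On chromosome 13, 38 of the 66 were from Mbd1 KO 2, against 398 of 1550 on the rest of that chromosome.

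Shared regions on chromosome 4 were also weak. Their lowest percentile over the 4 libraries had a median of 27.0, and 7 of 88 (7.95%) lay above 75 in every list. On the rest of the 3 chromosomes the median was 56.8, and 29.1% lay above 75. For chromosome 13 the median was 50.2 with 4 of 19 above 75, and for chromosome 2 it was 49.0 with 0 of 8. Weak summits of the chromosome 4 and chromosome 13 stretches recurred often for their rank, a split by rank chosen after the data were seen. The share of lowest-quartile summits that lay in a region of another library was taken for each list. On chromosome 4 it was 82.7% in WT 1, 77.2% in WT 2, 61.0% in Mbd1 KO 1 and 62.6% in Mbd1 KO 2. On chromosome 13 it was 90.9%, 69.0%, 68.2% and 52.2% in the same order, from 11, 29, 22 and 67 summits. On the rest of the 3 chromosomes the values were 70.5%, 47.2%, 30.9% and 48.0%. In each library both stretches were the higher by this measure. By the share of lowest-quartile summits in regions of all 4 libraries, chromosome 4 was the higher in each library, but chromosome 13 was not. Chromosome 13 had 45.5%, 3.45%, 4.55% and 5.97% in the same order, against 30.1%, 10.2%, 4.30% and 7.92% on the rest. Summits packed closely are more easily joined to a neighbour, a part that was not tested.

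The question of the design was whether accessible sites differ between WT and Mbd1 KO. By title, both Mbd1 KO libraries had more summits than both WT libraries in the 3 stretches together (332 ± 24.0 against 252 ± 68.6, SD, n = 2 each). The ratio was 1.32, with a two-sided exact permutation p of 0.33, which is the smallest that 2 libraries against 2 can give. As a share of the list the titled groups overlapped, with 0.532% in WT 1, 0.643% in WT 2, 0.559% in Mbd1 KO 1 and 0.703% in Mbd1 KO 2. The difference was 0.0430 percentage points (exact permutation p = 0.67). The mean share was 0.631% by title in Mbd1 KO and 0.588% in WT, and 2 libraries against 2 cannot show whether these differ.

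By stretch, the titled groups overlapped in share throughout. On chromosome 4 the shares were 0.425% in WT 1, 0.463% in WT 2, 0.410% in Mbd1 KO 1 and 0.451% in Mbd1 KO 2, a difference by title of -0.0135 percentage points (exact permutation p = 0.67). On chromosome 13 they were 0.0760%, 0.139%, 0.119% and 0.209%, a difference of 0.0564 (exact permutation p = 0.67). On chromosome 2 they were 0.0315%, 0.0407%, 0.0302% and 0.0423%, a difference of 0.000120 (exact permutation p = 1). WT 2 and Mbd1 KO 2, 1 library of each titled group, held the larger share of their group in every stretch.

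By genotype field, the libraries fell apart the same way in all 3 stretches. WT 2 and Mbd1 KO 2, the field's WT pair, each held a larger share than WT 1 and Mbd1 KO 1, the field's Mbd1 KO pair. The shares averaged 0.457 ± 0.009% against 0.417 ± 0.011% on chromosome 4, 0.174 ± 0.050% against 0.0974 ± 0.0303% on chromosome 13, and 0.0415 ± 0.0011% against 0.0308 ± 0.0009% on chromosome 2 (SD, n = 2 each, exact permutation p = 0.33 in each stretch, the smallest possible). The groups did not overlap in 3 of 3 stretches. The same order was found in 11.7% of the 961 windows elsewhere. The titled Mbd1 KO pair stood above the titled WT pair in share in 0 of 3 stretches and in 16.0% of the windows. Counting error on chromosomes 4 and 2 was wider than these SDs. The 95% exact binomial intervals on chromosome 2 were 0.0245 to 0.0636% in WT 2 and 0.0262 to 0.0646% in Mbd1 KO 2. They overlapped those of WT 1 (0.0163 to 0.0550%) and Mbd1 KO 1 (0.0176 to 0.0483%). On chromosome 4 the intervals of all libraries overlapped too. On chromosome 13 that of Mbd1 KO 2 lay above those of WT 1 and Mbd1 KO 1, and that of WT 2 overlapped both. The genotype field parts the libraries as the replicate numbers do, so genotype by that field and anything shared by replicate number cannot be told apart. Between the pair of libraries with matching labels, WT 2 held the larger share in each stretch, and the numbers of summits were 216 against 231 for Mbd1 KO 1 on chromosome 4, 65 against 67 on chromosome 13 and 19 against 17 on chromosome 2.

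On chromosome 4 the titled Mbd1 KO pair and the titled WT pair had equal numbers of regions called in that pair alone, while their backgrounds were unequal. Here, 12 of 376 regions (3.19%) were called in the 2 titled Mbd1 KO libraries alone, and 12 (3.19%) in both titled WT libraries alone. In the rest of the 3 chromosomes these classes made up 4.18% and 0.886%. The field's Mbd1 KO pair alone had 11 regions (background 1.70%) and the field's WT pair alone had 14 (background 2.66%). The remaining pairs had 9 for WT 1 with Mbd1 KO 2 (background 1.34%) and 19 for WT 2 with Mbd1 KO 1 (background 3.04%). Against the background, 5 of the 6 classes were larger in the stretch, the titled WT class by the largest factor, and the titled Mbd1 KO class was smaller.

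On chromosome 13 most of the 33 regions called in exactly 2 libraries were of the pairs that include Mbd1 KO 2 and leave out WT 1. The titled Mbd1 KO pair had 12 of 137 regions (8.76%) and the field's WT pair had 14 (10.2%). The titled WT pair had 0, and a count of 0 allows a share of up to 2.19% by counting error alone. The field's Mbd1 KO pair had 1, and each of the remaining pairs had 3. Of regions called in 3 libraries, 15 of 19 were called in all but WT 1, the most frequent of the 4 such classes on the rest of the 3 chromosomes as well (664 of 1490). WT 1 had the fewest summits in this stretch and Mbd1 KO 2 the most, and the part of these numbers in the classes was not tested. On chromosome 2 the titled Mbd1 KO pair had 1 of 29 regions, the titled WT pair 0, the field's WT pair 3 and the field's Mbd1 KO pair 0. The rest of that chromosome had 4.25%, 0.754%, 2.61% and 1.84% in the same order, and 29 regions are too few to compare.

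**Figure D5:**
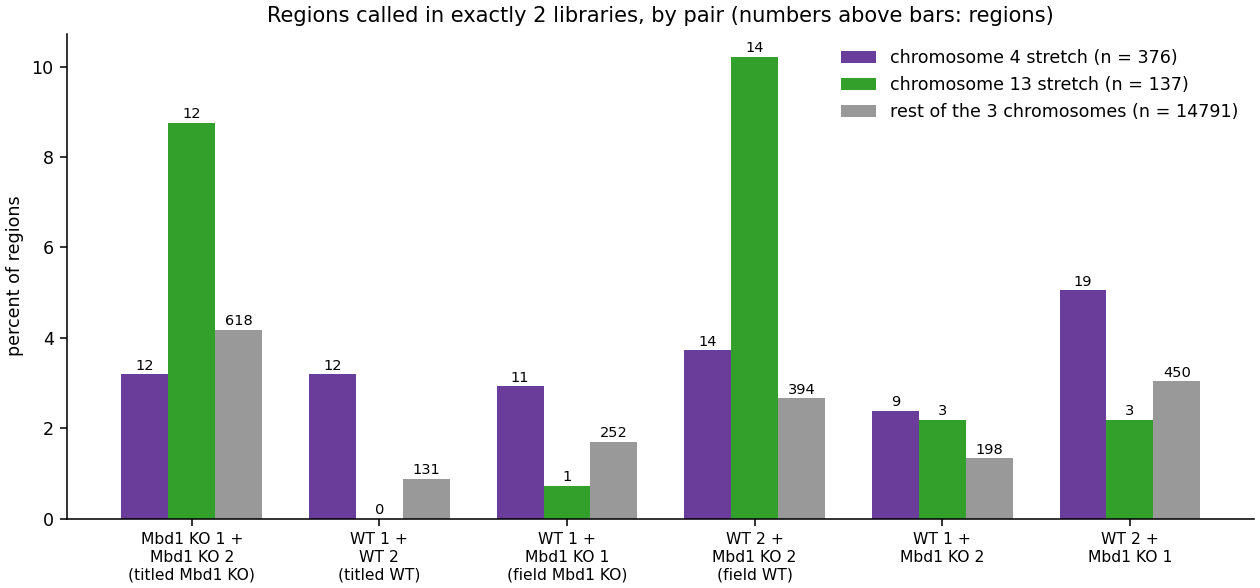
Percent of regions (y axis) called in exactly 2 libraries, for each of the 6 pairs of libraries (x axis), in the chromosome 4 stretch, the chromosome 13 stretch and the rest of the 3 chromosomes. The numbers above the bars are regions, and on chromosome 13 the bars of the titled Mbd1 KO pair (12) and the field's WT pair (14) stand above the others.

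The pair-only regions of the stretches were weak, and the same value was not taken for pair-only regions elsewhere. The lower of the 2 percentiles had a median of 11.5 in the 25 regions of the titled Mbd1 KO pair and 10.3 in the 12 of the titled WT pair, and 19.0 and 11.0 in the 12 and 31 of the field's Mbd1 KO and WT pairs. The strongest of the titled Mbd1 KO class lay on chromosome 2 (175605332 to 175605354), with percentiles of 50.2 in Mbd1 KO 1 and 46.5 in Mbd1 KO 2, and the nearest summit of the other libraries was 34092 bp away. The next was on chromosome 4 (147127143 to 147127161), with 59.4 and 41.4 and a distance of 20716 bp. On chromosome 13 the strongest (65716617) had 36.5 and 48.2, at 76500 bp. All 3 distances exceed 1000 bp, the longest joining distance tried.

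The strongest region of the titled WT class (chromosome 4, 145718023 to 145718032) had percentiles of 28.7 in WT 1 and 31.8 in WT 2, and a summit of an Mbd1 KO library lay 726 bp away. The next (146883653 to 146883661) had 32.7 and 23.5, with a summit of the other group 370 bp away. Of the 12 regions in this class, all on chromosome 4, 6 had such a summit within 1000 bp. In the titled Mbd1 KO class 4 of 25 had one, and 2 of 12 on chromosome 4 alone. The lists searched for the titled WT class were the 2 longer ones, and the part of list length was not tested. For the field's WT pair the strongest was on chromosome 2 (175639446 to 175639451), with percentiles of 61.2 in WT 2 and 64.8 in Mbd1 KO 2 and the nearest summit of WT 1 or Mbd1 KO 1 at 34114 bp. For the field's Mbd1 KO pair it was on chromosome 4 (146744628 to 146744645), with 34.3 in WT 1 and 43.6 in Mbd1 KO 1 and a summit of the other pair 466 bp away.

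Pairs of libraries had a smaller share of their regions in common in the chromosome 4 and 13 stretches than outside them. The Jaccard index, regions called in both libraries over regions called in either, was 0.420 to 0.480 for the 6 pairs on chromosome 4 and 0.490 to 0.548 on the rest of the 3 chromosomes. On chromosome 13 it ran from 0.231 for WT 1 with Mbd1 KO 2 to 0.404 for WT 2 with Mbd1 KO 1. On chromosome 2 it was 0.435 to 0.611, from few regions. WT 2 with Mbd1 KO 1 had the highest index on both chromosome 4 and chromosome 13, by a small margin. The field's WT pair had 0.478 against 0.480 on chromosome 4 and 0.397 against 0.404 on chromosome 13, where the titled Mbd1 KO pair had 0.402.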

How the data were processed

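The authors deposited 1 list of MACS2 peak summits per FAIRE-seq library, 4 in all, so peaks were not pooled. Bowtie, SAMtools, MACS2 and build mm9 are named, without versions, per the submitters' processing notes. Neither thresholds nor read filters are stated there, nor an input control. Summits have a width of 1 base and a score, deposited by the authors without a definition, from 1.32 to 321. Scores were used as ranks within a list and as a filter. Lists held 38142 to 56382 summits.

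The stretches and all lists and splits were chosen with earlier results of these data known. Regions were summits within 250 bp of the next. The rest of a chromosome ran from its first to its last summit without the stretch. Named regions were, per stretch, the 3 called in all 4 libraries with the highest lowest percentile, the up to 5 strongest of each titled and genotype-field pair-only class, and the longest run with no summit; the text gives a part of them. Groups were compared with the exact two-sided permutation test over libraries. Titles gave the groups, and the main comparison did not pair libraries by replicate number. Deviations of same-numbered libraries had a correlation of 0.0129 over 26592 regions of all 4 libraries. Regions called in fewer libraries were left out of that check. It therefore cannot decide whether same-numbered libraries are alike in which summits are called or in share of the list. Alternatives were a score of at least 10, lists of equal length (tied scores in random order), borders moved by 250 kb, joining at 100 or 1000 bp, flanks, the genotype field, a replicate block and leaving out each library; blocks of chromosome 13 were added after seeing the data. Joining was tested on simulated data. RefSeq promoters of GRCm38.p6 were matched by gene order and never placed in mm9. Python 3.11.15, numpy 2.4.6, pandas 2.3.3 and matplotlib 3.10.9 were used.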

Additional observations from a re-analysis of the deposited data

How the results depend on the processing

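Over the 3 stretches the main values were a density ratio of 1.93, shares of 21.2% called in all 4 libraries and 42.6% in 1, 25 titled Mbd1 KO and 12 titled WT pair-only regions, a median percentile of 30.9, a summit number ratio of 1.32 and a share difference of 0.0430 percentage points. At a score of at least 10 the density ratio turned to 0.941 and the share called in 1 library was 37.7%. The pair-only regions were 4 and 1 and the median percentile was 24.6. Percentiles here and in lists of equal length were ranked anew within the shortened lists, so they are on another scale than the main values. On chromosome 13 the density ratio turned to 0.761 and on chromosome 4 the share difference turned to 0.00329. On chromosome 2 the median percentile, at 24.0, fell below that of the rest in the same shortened lists. In lists of equal length, which drop the weakest summits of the longer lists, the density ratio was 1.68, the pair-only regions were 7 and 23, the summit number ratio turned to 0.841 and the share difference to -0.0905 (exact permutation p = 0.33 for both). There the summit number ratio on chromosome 4 turned to 0.760, and the median percentile on chromosome 2, at 46.6, fell below that of the rest. By the genotype field, the pair-only regions were 12 and 31, the number ratio 0.798 (chromosome 4 0.893, chromosome 13 0.568, chromosome 2 0.725) and the share difference -0.127 (chromosome 13 -0.0769, chromosome 2 -0.0107). So the direction of the genotype comparison depends on the label and on list length.

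Joining at 100 bp gave 15.1% called in all 4 and 52.0% in 1; joining at 1000 bp gave 28.4%, 33.6% and 7 titled WT pair-only regions. Against flanks the density ratio was 2.49. Leaving out each library gave 25.96 to 30.8% called in all remaining libraries, 46.1 to 50.3% in 1, 40 to 121 and 23 to 65 regions of the 2 titled classes (fewer libraries are required), number ratios of 1.11 to 1.64 and share differences from -0.0290 without Mbd1 KO 2 and -0.0124 without WT 1 to 0.115 without Mbd1 KO 1. Without each library the share difference on chromosome 4 ran from -0.0342 to 0.00710 (0.00561 without WT 2) and on chromosome 2 from -0.00594 to 0.00618 (-0.00451 without WT 1). On chromosome 13 the share difference of 0.0564 was lowest without Mbd1 KO 2 (0.0112) or WT 1 (0.0248) and highest without Mbd1 KO 1 (0.102). Its number ratio of 1.82 was lowest without WT 1 (1.32) and highest without WT 2 (2.95). There the 2 values were 0.00787 and 1.08 in lists of equal length, and 0.00564 and 1.23 at a score of at least 10. The outer blocks of chromosome 13, added after seeing the data, gave 0.944. With a replicate block, which pairs the libraries by number, the number ratio was 1.34 and the share difference 0.0430. The share difference equals the main value by construction. The exact sign-flip permutation p was 0.5 for both, the smallest 2 pairs can give. No p below 0.05 was possible with or without the block, so these tests could not change a call. Borders moved inwards left the density ratios and median percentiles within the spread of the libraries, except the density ratio of the chromosome 4 stretch, 4.25. The other results were not set against that spread. The shares were 19.5% called in all 4 and 43.3% in 1, and the pair-only regions stayed at 25 and 12. The number ratio was 1.33 and the share difference 0.0449 percentage points. No number ratio or share difference changed direction.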
